A study of Rattus norvegicus with 20 samples.

Results

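The genes described here encode the contractile thin filament of heart muscle: the sarcomeric actins Acta1 (skeletal alpha-actin) and Actc1 (cardiac alpha-actin), the troponin subunits Tnnt2, Tnni3, Tnni1 and Tnnc1, and alpha-tropomyosin, Tpm1. Members were all probe sets of the array whose annotation gives exactly 1 gene symbol that is among these 7 genes. This rule found 14 probe sets for 6 genes, out of 20826 probe sets with 1 gene symbol on the array. Tpm1 had 7 probe sets, Tnnt2 and Tnni1 had 2 each, and Acta1, Tnni3 and Tnnc1 had 1 each. Actc1 had 0, because every probe set that carries its symbol, 5 in number, also carries Acta2, the smooth muscle actin; those 5 probe sets cannot be attributed to either gene and are given separately.

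Thin filaments are polymers of actin along which tropomyosin dimers and troponin complexes are spaced at regular intervals. Troponin T anchors the complex to tropomyosin, troponin C binds calcium, and troponin I holds the filament off until calcium is bound. In the rodent ventricle the fetal isoforms, among them skeletal alpha-actin and slow skeletal troponin I, are known to give way to the adult cardiac ones around birth, and Acta1 is a textbook member of the fetal genes that return under pressure overload.

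Dahl rats are strains bred for how their blood pressure responds to dietary salt, and the study set the left ventricle of a normal heart beside that of a failed heart (CHF, congestive heart failure). For each heart, 10 Affymetrix Rat Genome 230 2.0 arrays were hybridised: mRNA, genomic DNA before immunoprecipitation (pre-IP), and chromatin immunoprecipitates (ChIP) for 8 histone marks. These were trimethylated K4, K9 and K20 (K4me3, K9me3, K20me3), dimethylated K4, K9 and K27 (K4me2, K9me2, K27me2), whose histone the labels do not name, and acetylated H4 (H4ac) and H3 (H3ac). Samples of both groups were from animals of 19 weeks, except that the normal H4ac sample carries no age; a high-sodium diet is named only for the failed mRNA sample, and the diet of the others was not stated in the labels. The design text names 1 left ventricle specimen per experiment, so each group is 1 array and no value below has a replicate error or a p-value. The normal H4ac sample is called acetylated H4 in its title and description but pre-IP DNA in its source field, and it was used as H4ac.

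All levels below are array intensities after scaling each array to a median of 100, with values under 10 raised to 10. All differences are log2 failed minus log2 normal, and a mark's enrichment is its log2 level minus the log2 pre-IP level of the same heart, so that -1 is a 2-fold lower and 1 a 2-fold higher signal. The 27 probe sets of the array for bacterial genes of the Dap, Lys, Phe, Thr and Trp families served as background: their highest level was 65.3 on the normal and 49.5 on the failed mRNA array, and between 15.0 and 104 on the DNA arrays. A probe set at or under the highest of these controls is called within the background. The probes were designed for transcripts, so a ChIP value describes chromatin under a stretch of the transcribed gene and not under its promoter. Levels of different probe sets are not compared with each other. The ventricle can hold several cell types, and more cells of a type and more RNA per cell cannot be told apart in such samples.

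Promoter windows of 4 of the genes were taken from RefSeq on the GRCr8 assembly (250 bases before to 50 after the annotated start, 5′ to 3′ on the gene's strand). They are shown because these genes carried the largest mRNA difference (Acta1), K9me2, K20me3 and K27me2 signal below pre-IP (Tnnt2, Tnni3) and contrasting K27me2 values (Tnni1). Capitals mark matches, on either strand, to the motifs searched: the CArG box of serum response factor, the TATA box letters TATAAA, the MCAT core CATTCC of TEAD factors and the GATA factor site AGATAA. No matches overlapped. The Acta1 window lies at chr19:68784145-68784444, minus strand, and the Tnnt2 window at chr13:49818873-49819172, plus strand. Tnni3 has its window at chr1:78342321-78342620, plus strand, and Tnni1 at chr13:49781279-49781578, plus strand.
Acta1: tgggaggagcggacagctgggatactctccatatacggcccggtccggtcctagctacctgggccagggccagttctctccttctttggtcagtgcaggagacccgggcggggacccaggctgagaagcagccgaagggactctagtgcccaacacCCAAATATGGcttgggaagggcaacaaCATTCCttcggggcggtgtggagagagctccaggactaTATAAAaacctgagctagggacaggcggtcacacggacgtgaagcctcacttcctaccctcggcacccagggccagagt
Tnnt2: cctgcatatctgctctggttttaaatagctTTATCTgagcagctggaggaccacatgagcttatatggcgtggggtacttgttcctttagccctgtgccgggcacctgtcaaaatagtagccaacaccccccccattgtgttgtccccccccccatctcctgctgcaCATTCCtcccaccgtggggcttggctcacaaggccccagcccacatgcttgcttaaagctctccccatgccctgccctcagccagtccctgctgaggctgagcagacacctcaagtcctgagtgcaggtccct
Tnni3: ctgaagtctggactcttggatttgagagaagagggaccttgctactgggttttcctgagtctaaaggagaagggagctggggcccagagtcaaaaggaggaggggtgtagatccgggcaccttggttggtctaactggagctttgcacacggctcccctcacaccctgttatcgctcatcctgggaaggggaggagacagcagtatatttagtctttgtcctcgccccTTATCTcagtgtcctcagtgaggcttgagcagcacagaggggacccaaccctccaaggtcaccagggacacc
Tnni1: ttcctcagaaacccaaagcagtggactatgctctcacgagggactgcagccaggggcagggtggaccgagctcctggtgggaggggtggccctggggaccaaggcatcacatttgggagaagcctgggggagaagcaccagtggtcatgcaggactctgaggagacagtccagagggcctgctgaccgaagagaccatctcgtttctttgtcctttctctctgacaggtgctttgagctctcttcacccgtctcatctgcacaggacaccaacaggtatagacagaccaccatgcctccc

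The Acta1 window held a CArG box from -94 to -85 of the start, CATTCC from -67 to -62 and TATAAA from -29 to -24. In the Tnnt2 window CATTCC lay at -83 to -78 and the reverse of AGATAA at -220 to -215, and in the Tnni3 window the reverse of AGATAA lay at -22 to -17. These letters were not found in the Tnni1 window or in a second window listed for Tnnt2. The windows of Actc1 and Tpm1 held a CArG box from 2 to 11 and the reverse of CATTCC from -31 to -26. Of the 33469 windows of this length in the table, 1.64% held a CArG box, 14.2% TATAAA, 14.2% CATTCC and 11.6% AGATAA. A match of letters is a description of the sequence and not of binding, and Tnnc1 was not in the table. Tnni1 and Tnnt2 are near neighbours in the current rat annotation, with only Lad1 between them, and Tnni3 lies next to Tnnt1, the slow skeletal troponin T gene.

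The mRNA comparison asked how the level of these transcripts differed with heart failure. The skeletal actin Acta1, the calcium-binding subunit Tnnc1 and the slow skeletal inhibitor subunit Tnni1 had at least 2-fold more signal in the failed heart, the cardiac inhibitor subunit Tnni3 had slightly less, and Tnnt2 lay 1.62-fold higher. Tropomyosin had no single direction: its probe sets pointed both ways. Acta1 stood at 1839 in the normal heart and 6967 in the failed one, a difference of 1.92 or 3.79-fold. Both values were far above the bacterial controls.

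Among the troponins, Tnnc1, which is the calcium sensor shared by slow skeletal and cardiac muscle, went from 6343 to 15782, a difference of 1.32. The main Tnnt2 probe set, 1367592_at, went from 18852 to 30613, a difference of 0.70. These values place Tnnc1 past 2-fold and Tnnt2 short of it. A second Tnnt2 probe set, 1390061_at, was within the background in both hearts, at 13.6 and 37.1, so its difference is given no fold.

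Tnni3, the adult cardiac troponin I, was at 21285 in the normal heart and 16311 in the failed one, a difference of -0.38. Tnni1, its slow skeletal counterpart of the fetal heart, was at 70.3 and 149 on probe set 1386873_at, a difference of 1.09. The normal value lay just above the highest control of 65.3, so the size of that difference rests on a dim signal. The other Tnni1 probe set, 1371339_at, was within the background on both arrays, at 24.8 and 22.8. The troponin I genes thus had opposite signs under this scaling, with the adult form 0.77 times and the slow form 2.13 times its normal level.

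Tpm1 wraps along actin and is spliced into many isoforms, and its probe sets may read different transcripts of the gene. Higher in the failed heart were 1368724_a_at (19888 to 27640, a difference of 0.47), 1371241_x_at (11830 to 20851, 0.82) and 1370288_a_at (2585 to 4890, 0.92). Lower were 1370287_a_at (1349 to 1009, -0.42), 1371240_at (408 to 269, -0.60) and 1395794_at (1453 to 902, -0.69). Of the 6 Tpm1 probe sets above background, 3 were therefore higher and 3 lower, each by less than 2-fold. The seventh, 1370513_at, was within the background, at 22.5 and at the floor of 10. Probe sets 1371240_at and 1371241_x_at were built from the same source sequence and still differed in sign, and the suffix of the latter marks probes that can match other sequences.

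**Figure D1:**
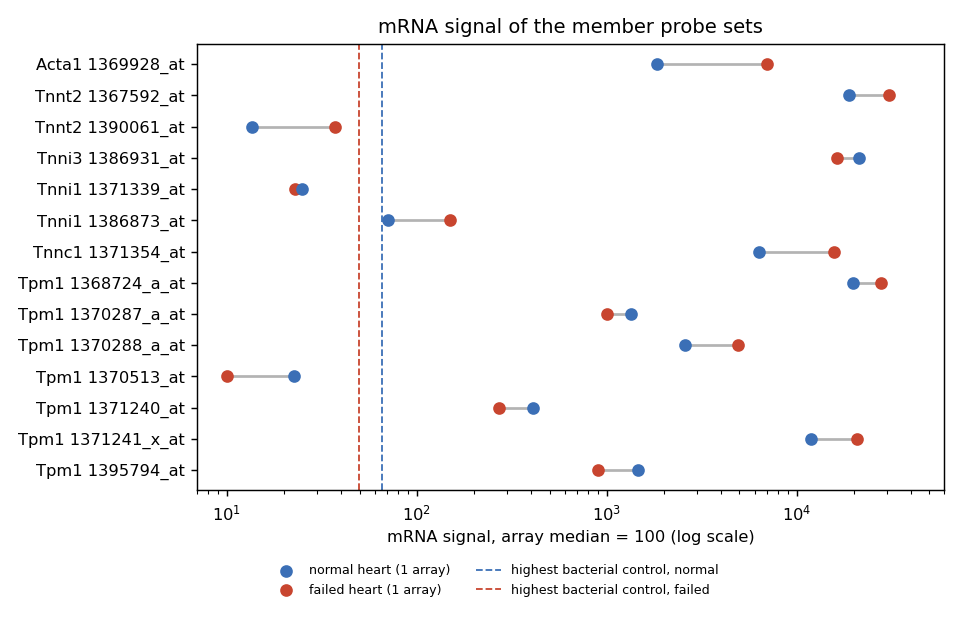
Levels of the 14 member probe sets on the normal (blue) and failed (red) mRNA array, on a log axis with the array median at 100; each point is 1 array, a grey bar joins the hearts, and dashed lines mark the highest of the 27 bacterial controls on each array. Acta1 moved from 1839 to 6967, the Tpm1 probe sets moved in either direction, and 3 probe sets lay left of both control lines.

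Of the 11 member probe sets that passed the level filter (a mean log2 level over the 2 mRNA arrays at or above the median of all probe sets), 3 were higher in the failed heart by 2-fold or more and 0 lower by as much. Over all 11651 probe sets passing it, the shares were 11.7% higher and 3.38% lower. Counted with no level filter, 4 of the 14 were higher and 1 lower, beside 15.5% and 10.6% of all probe sets, and both additional calls were within the background. Most members had bright mRNA probe sets, and of the 2083 probe sets that make up the brightest 10% by mRNA level 20.3% were at least 2-fold higher, so a count of 3 in 11 is near the share of other bright probe sets. The median difference was 0.59 over the 14 members and 0.11 over all probe sets with 1 gene, but 0.49 over the brightest 10%.

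These mRNA differences depended on how the arrays were put on a common scale. With the values as deposited Acta1 differed by 1.65, Tnnc1 by 1.05, Tnni1 by 0.82 (1386873_at) and Tnni3 by -0.65, and the median of all probe sets was -0.16. After quantile normalization the same differences were 1.34 for Acta1, 0.62 for Tnnc1, 1.09 for Tnni1 and -0.80 for Tnni3. Acta1 alone was past 2-fold among probe sets above background in all 4 scalings. The 18 probe sets of the bacterial hybridisation controls (bioB, bioC, bioD and cre), added to each sample before hybridisation, were themselves lower on the failed array, by a mean of -0.63. Scaling on them instead, an alternative chosen after seeing the data, gave 2.55 for Acta1, 1.95 for Tnnc1, 1.33 for Tnnt2 (1367592_at) and 0.25 for Tnni3, and moved the median of all probe sets to 0.74. The sign of Tnni3 therefore flips with that scaling, as do those of Tpm1 1370287_a_at (0.21) and 1371240_at (0.03) and of the background-level Tnni1 1371339_at (0.51), while Tnni3 remained below the median of all probe sets in each of the 4.

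**Figure D2:**
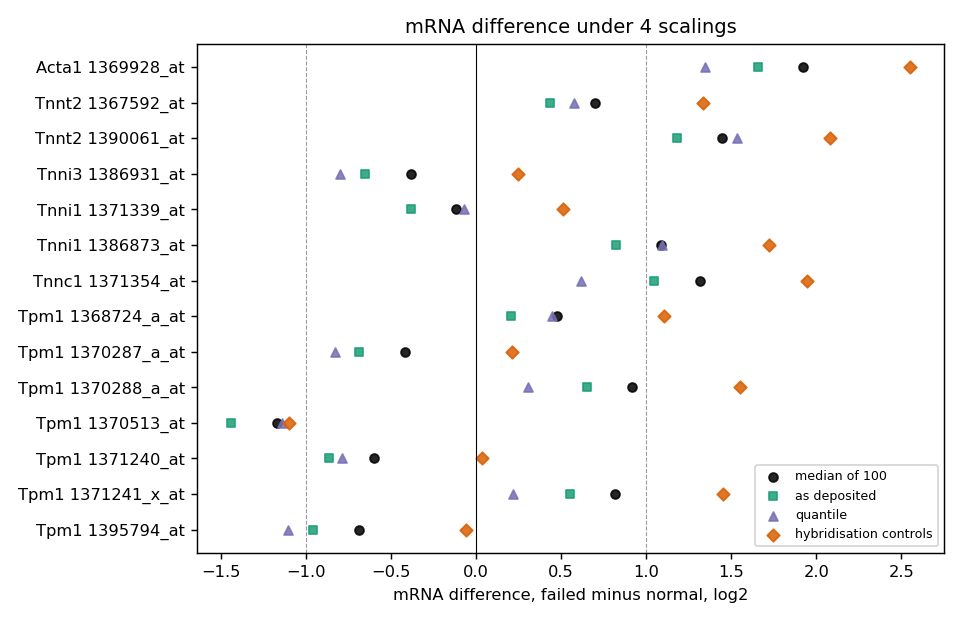
Difference in mRNA level (log2 failed minus log2 normal) of each member probe set under 4 scalings of the arrays, with dashed lines at a 2-fold difference; each point is the difference of 2 arrays. Acta1 ran from 1.34 to 2.55, and Tnni3 from -0.80 to 0.25 with the hybridisation controls on the other side of 0.

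Other quantities moved with these differences, and their part in them was not tested. The 3′ to 5′ signal ratio of the GAPDH control probe sets was 11.3 in the normal sample and 22.6 in the failed one, that of beta-actin was 18.2 and 12.4, and that of hexokinase 0.148 and 0.447. All 10 cardiomyocyte marker genes were above background in both hearts, with a summed level of 97726 in the normal heart and 130146 in the failed one. Their median difference was 0.78, with 4 at least 2-fold higher and 1 lower, Myh6, from 41341 to 20290. The label names left ventricular myocytes. All 8 fibroblast markers were above background too, with a sum of 20915 and 52158 and a median difference of 1.07, and all 8 smooth muscle markers, with a sum of 9436 and 5903 and a median of -1.17. Macrophage markers, 7 measured, summed to 2678 and 10310, and 1 of them was within the background in the normal heart. Skeletal muscle markers, which include the fast troponin genes, were within the background for 5 of 8 genes in the normal heart and 3 of 8 in the failed one, with a median difference of -0.13. Atrial markers (4 measured, median 1.30), endothelial markers (6, -0.20) and red blood cell markers (3, 0.89) were also measured.

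Other troponin and tropomyosin isoforms were measured as well. Fast skeletal Tnni2 was at 48.1 in the normal heart, within the background there, and at 191 in the failed heart. Against the background limit of 65.3 that is at least 2.92-fold. Slow skeletal Tnnt1 went from 168 to 114 (-0.56) and fast skeletal Tnnt3 from 112 to 71.2 (-0.66). Beta-tropomyosin, Tpm2, went from 3178 to 1823 (-0.80), and Tpm3 from 6649 to 4856 (-0.45). Each of these 4 genes was lower in the failed heart by less than 2-fold. The Tpm3 probe set had pre-IP DNA levels of 22488 and 16941, above its mRNA levels, and whether it reads Tpm3 alone was not tested. Tpm4 went from 2125 to 2437 (0.20), and fast skeletal Tnnc2 was within the background in both hearts.

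The wider list of thin filament and actin family genes held 31 names, of which 27 were measured and 23 passed the level filter. Of those 23, 6 were higher by 2-fold or more and 3 lower by as much, beside 11.8% and 3.14% of the 9317 genes that passed. Its median was 0.19 and that of all 14217 genes 0.15. Among the genes that passed, the largest positive differences were those of Cfl2, a muscle cofilin that severs actin filaments, at 2.39, and Nrap, an actin-anchoring protein of myofibril assembly, at 2.18. The largest negative ones among them were Actg2, the enteric smooth muscle actin, which is also in the smooth muscle marker list, at -1.37, and Acta2 on its own probe set at -1.13 (288 to 131). Neb, which encodes nebulin and did not pass, was within the background in both hearts. Neighbouring sarcomere genes, 14 of 14 measured and passing, had 9 higher and 1 lower and a median of 1.33. They ran from the Z-disc protein gene Csrp3 at 2.54 and desmin (Des) at 2.43 to Ldb3 at -0.15 and the fast myosin heavy chain Myh6 at -1.03.

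Transcription factor genes of the serum response and cardiac muscle programs, 11 measured of 14 and 10 passing, had 2 higher and 0 lower with a median of 0.52. Among the 10 passing, the highest were Gata4, which went from 129 to 365, and Tead1 at 1.48, and the lowest were Mef2d at -0.53 and Nkx2-5 at 0.07. Mrtfa, which did not pass, was at -0.70. Srf, which encodes the factor that binds CArG boxes, went from 698 to 1100 (0.66).

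The 5 probe sets shared by Acta2 and Actc1 did not have a single answer for the cardiac actin. Probe set 1370856_at went from 7170 to 20506 (1.52), while 1374352_at went from 8215 to 7871 (-0.06) and 1374353_x_at from 7993 to 7528 (-0.09). The dimmer 1381861_x_at (123 to 191, 0.63) and 1385797_at (252 to 309, 0.30) lay between them. The smooth muscle actin read alone was lower, so the higher signal at 1370856_at was not shared by the Acta2 probe set, and what part of it is Actc1 cannot be told apart on these arrays.

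On the DNA side, pre-IP signal served as the reference for each mark, and it was not equal in the hearts for Tpm1. The pre-IP differences of the 7 probe sets outside Tpm1 ran from -0.51 (Tnnc1, 358 to 250) to 0.20. Of the Tpm1 probe sets 6 lay between -1.12 and -0.50. The seventh, 1370287_a_at, went the other way by 2.55, from 11.4, which was within the background, to 66.7. In all, 2 of 14 differed by at least 2-fold, beside 15.4% of all probe sets. Mark differences of Tpm1 carry these reference differences, and for that reason the 7 probe sets outside Tpm1 are also summarised apart from it, a grouping chosen after the values were seen.

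The enrichment of the active-chromatin marks asked how strongly acetylation and K4 methylation covered these genes. Tnnc1 had the highest H3ac and K4me2 of the probe sets outside Tpm1, Tnni3 was above pre-IP for H3ac, and Acta1 and the main Tnnt2 probe set were close to their pre-IP level for H3ac. Tnnc1 was at 358 (pre-IP), 1292 (H3ac) and 1304 (K4me2) in the normal heart, and at 250, 604 and 972 in the failed heart. Its enrichments were thus 1.85 and 1.27 for H3ac and 1.86 and 1.96 for K4me2 in the normal and the failed heart. H4ac was 0.79 and 0.93 and K4me3 was 0.90 and 0.20 at Tnnc1.

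Tnni3 had an H3ac enrichment of 1.20 in the normal heart and 0.43 in the failed one, and K4me2 of 0.43 and 1.26. Its H4ac went from 0.33 to -0.61. The dim-mRNA Tnnt2 probe set 1390061_at had H3ac of 1.61 and 1.02, whereas the bright one, 1367592_at, had -0.13 and -0.19. Both probe sets are annotated to Tnnt2, and their H3ac values differed by 1.74 in the normal heart, where the median gap between probe sets of a gene on the array was 0.63. Acta1 had H3ac of -0.22 and -0.14, K4me2 of -0.25 and 0.04 and H4ac of -0.58 and -1.41. The gene with the largest mRNA difference thus had no 2-fold enrichment of an active mark in either heart.

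At least 2-fold above pre-IP in both hearts were 2 of 14 members for H3ac (Tnnc1 and Tnnt2 1390061_at; 6.57% of all probe sets) and 1 of 14 for K4me2 (Tnnc1; 10.5%). For the other marks the count was 0 of 14, where all probe sets gave 3.08% for H4ac, 1.28% for K4me3, 4.65% for K9me2, 2.28% for K9me3, 1.83% for K20me3 and 1.73% for K27me2. At least 2-fold below pre-IP in both hearts were 1 for H3ac (6.7%), 0 for H4ac (6.58%), 1 for K4me2 (3.27%) and 3 for K4me3 (1.48%), every one a Tpm1 probe set.

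**Figure D3:**
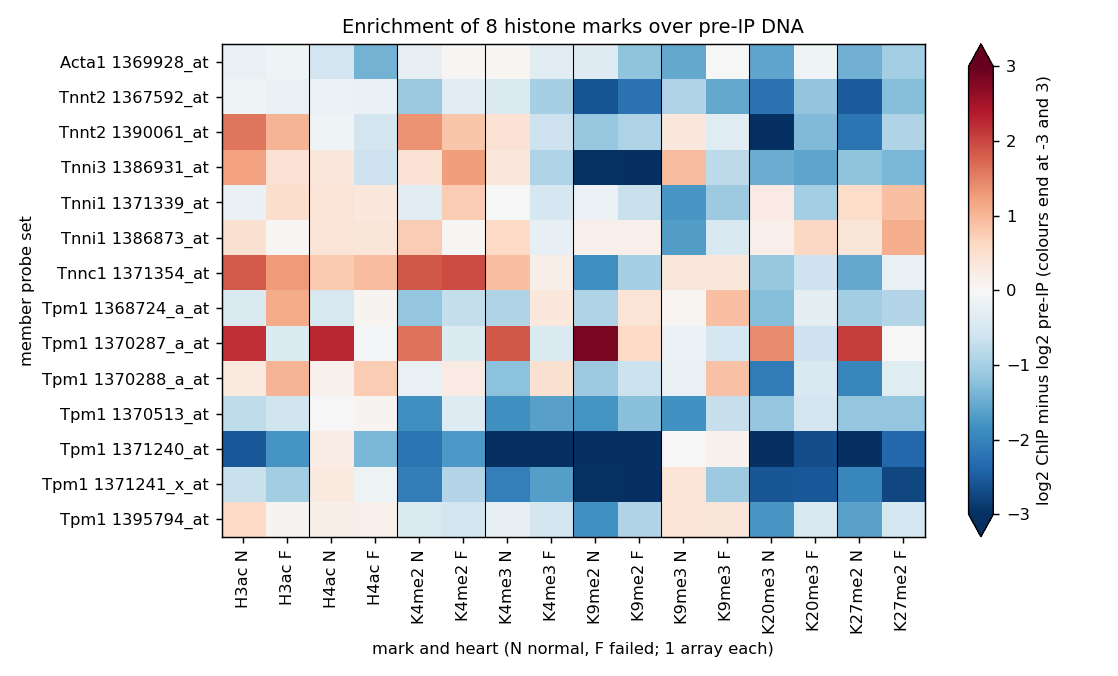
Enrichment over pre-IP (log2, colours end at -3 and 3) of 8 marks at the 14 member probe sets in the normal (N) and failed (F) heart, 1 array each. Blue columns for K9me2, K20me3 and K27me2 run through Tnnt2, Tnni3 and Tpm1 1371240_at and 1371241_x_at, while both Tnni1 probe sets are pale to red for K27me2, and Tnnc1 is red for H3ac and K4me2.

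The marks K9me2, K20me3 and K27me2, which as background are associated with silent chromatin or, for K27me2, with chromatin lacking active transcription, were low at several members. The main Tnnt2 probe set, Tnni3 and the Tpm1 probe sets 1371240_at and 1371241_x_at were at least 2-fold below pre-IP for all 3 marks in both hearts. Tpm1 1370287_a_at lay above pre-IP for K9me2 and K27me2 in the normal heart, at 2.81 and 2.08 over a pre-IP level within the background. Its K20me3 level there was itself within the background. Tnni1 did not share the low values either: K27me2 lay above pre-IP at both of its probe sets in both hearts. Acta1 was past 2-fold below pre-IP for K27me2 in both hearts and for K20me3 only in the normal one.

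At the main Tnnt2 probe set the pre-IP level was 309 in the normal heart and 299 in the failed one. The K27me2 level was 54.6 and 124, enrichments of -2.50 and -1.27. K9me2 was -2.59 and -2.22 there, and K20me3 was -2.22 and -1.19. Low ChIP levels meet the background: failed K9me2 (64.3 beside a highest control of 104) and normal K20me3 (66.3 beside 90.8) were within it, and set at the control limit these enrichments are at most -1.52 and -1.77. The second Tnnt2 probe set had K27me2 of -2.20 and -0.91.

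Tnni3 had pre-IP levels of 252 and 282, beside K27me2 levels of 108 and 109, enrichments of -1.22 and -1.37. Its K20me3 enrichment was -1.58 in the failed heart, and in the normal heart, where its level of 89.8 was within the background, it is at most -1.47. Its K9me2 level was 32.5 in the normal heart and 11.3 in the failed one, within the background in both, so K9me2 at Tnni3 is at most -2.59 and at most -1.44 and the hearts cannot be ordered. Tnnc1 had K9me2 of -1.84 and -0.99, K20me3 of -1.14 and -0.62 and K27me2 of -1.54 and -0.23, past 2-fold only in the normal heart.

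Acta1 had K27me2 levels of 104 and 145 beside pre-IP levels of 281 and 293, enrichments of -1.43 and -1.01. Its K20me3 was -1.58 in the normal heart and -0.12 in the failed one, and its K9me2 was -0.38 and -1.20. Tnni1 had K27me2 levels of 338 and 432 at 1371339_at, with pre-IP at 231 and 230, and of 111 and 208 at 1386873_at, with pre-IP at 86.0 and 98.5. The enrichments were 0.55 and 0.91 at the first and 0.37 and 1.08 at the second probe set, so the dimly expressed slow troponin I gene had the only positive K27me2 values outside Tpm1.

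Below pre-IP by at least 2-fold in both hearts were 5 of 14 members for K9me2, 5 for K20me3 and 6 for K27me2. Over all probe sets the shares were 9.76%, 3.88% and 5.87%, and in the brightest 10% by mRNA level 11.9%, 6.19% and 10.8%. K9me3 gave 1 of 14 (Tnni1 1371339_at) beside 4.64%. With ChIP values within the background set at the highest control, the counts were 4 for K9me2, 4 for K20me3 and 6 for K27me2. No share of all probe sets was taken under that bound, so these counts cannot be set beside the shares above. Members are not independent, since Tpm1 and Tnnt2 enter with several probe sets each and 2 of the Tpm1 probe sets come from 1 source sequence. The 6 for K27me2 were Acta1, Tnnt2 1367592_at, Tnni3 and 3 Tpm1 probe sets, and so covered 4 genes. Low K20me3 and K27me2 were not particular to the members. The 14 neighbouring sarcomere genes, 1 probe set each, had a median K27me2 enrichment of -1.05 in the normal heart and -1.03 in the failed one. Their medians were -1.07 and -0.93 for K20me3, and -0.96 and 0.01 for K9me2. The medians of all probe sets for these marks lay between -0.06 and -0.02.

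**Figure D4:**
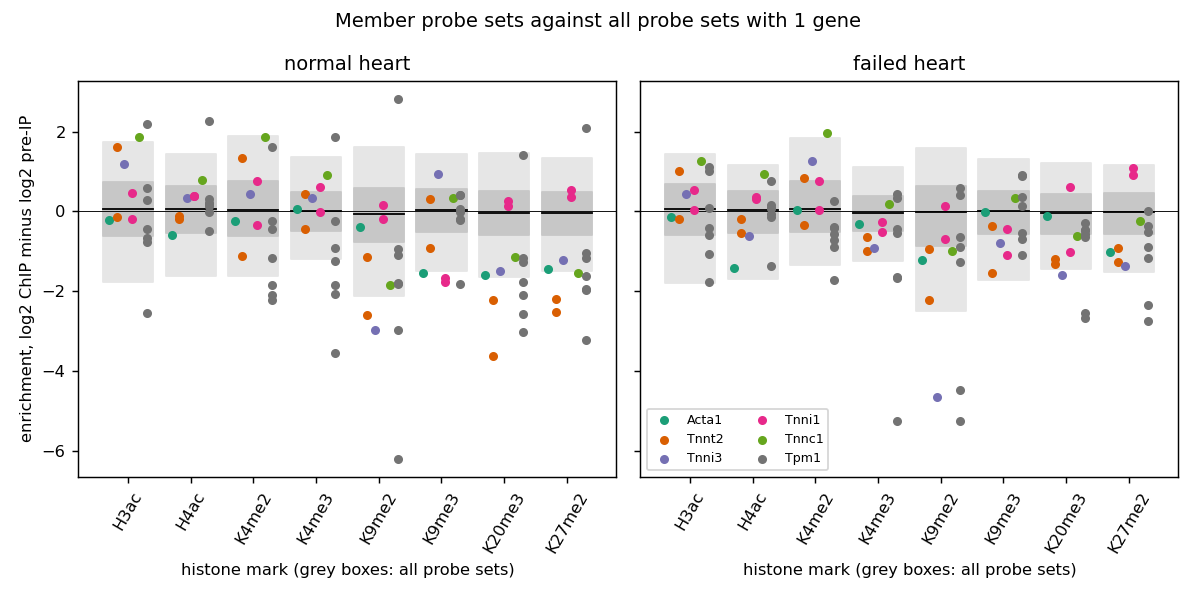
Enrichment (log2) of each mark at the member probe sets, coloured by gene, in the normal and failed heart; the dark grey box spans the middle 50% of all 20826 probe sets, the light box the middle 90%, and the black line is their median. For K27me2, Acta1, Tnnt2 and Tnni3 lie below the dark box and Tnni1 at or above the zero line in both hearts.

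Marks differed between the hearts in several members. Over the 7 probe sets outside Tpm1, K4me3, known from active promoters, was lower in the failed heart at 7 of 7 and K27me2 was higher at 6 of 7. H4ac was lower at 6 of 7, but its median of -0.06 was near the -0.07 of all probe sets. H3ac was lower at 5 of 7, where 50.8% of all probe sets were below 0, with a median of -0.42 beside -0.02. K20me3 was lower at 2 of 7, with a median of 0.52 beside -0.03. Without pre-IP it was lower at 1 of 7, beside 50.5% of all probe sets. Acta1 had more K9me3 and K20me3 in the failed heart, and Tnni3 had less K9me3.

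For K4me3 the differences outside Tpm1 ran from -1.26 at Tnni3 to -0.38 at Acta1, with a median of -0.70, and 51.9% of all probe sets were below 0. Tnni3 had K4me3 levels of 317 and 149 in the normal and failed heart. Tnnc1 had 670 and 288, a difference over pre-IP of -0.70, and Tnnt2 had 228 and 151 at 1367592_at (-0.55) and 170 and 80.6 at 1390061_at (-1.07). Tnni1 had -0.49 and -0.86. All 7 were also below 0 as deposited (median -0.69), with quantile normalization (-0.70) and without pre-IP (-0.66). The other floors and the hybridisation controls could not move these values. For a difference between the hearts, the mean pre-IP of both hearts gives the same value as no pre-IP. Over all 14 members 10 were below 0, and at Tpm1 3 of 7. The 2-fold counts were 2 higher and 4 lower of 14, beside 11.1% and 15.3% of all probe sets.

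The H4ac differences outside Tpm1 were small at 4 of the 7, between -0.06 and 0.14, and reached -0.83 at Acta1 and -0.94 at Tnni3. Their median was -0.06, and 54% of all probe sets were below 0 for H4ac. With the values as deposited 4 of the 7 were below 0, and without pre-IP 6 of 7, with a median of -0.38.

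For K27me2 the differences outside Tpm1 ran from -0.15 at Tnni3 to 1.31 at Tnnc1, with a median of 0.71, and 49.4% of all probe sets were above 0. Both Tnnt2 probe sets had about the same difference, 1.24 and 1.30, and so did both for Tnni1 in sign, at 0.36 and 0.71. Acta1 differed by 0.42. Without pre-IP all 7 were above 0, with a median of 0.79 and Tnni3 at 0.02, and Tpm1 had 3 of 7 above 0. The 2-fold counts were 5 higher and 1 lower of 14, beside 10% and 11.9%. Without pre-IP only 3 of 14 were past 2-fold either way, and Tnnc1 was at 0.79.

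Acta1 had K9me3 levels of 96.4 in the normal heart and 292 in the failed one, a difference over pre-IP of 1.54. Its K20me3 levels were 94.1 and 270, a difference of 1.46. These values brought both marks from below pre-IP in the normal heart to near the pre-IP level in the failed heart. The normal K20me3 level was close to the highest control of 90.8. Tnni3 had K9me3 levels of 486 and 164, a difference of -1.73, and Tnni1 1386873_at differed by 1.22, up to a level of 72.3. K9me3 thus went in opposite ways at Tnni3 and at Acta1 and Tnni1.

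The K20me3 differences of Tnnt2, 1.03 and 2.30, start from normal levels of 66.3 and 10.1 that were within the background, so their size is not settled. Tnni1 1371339_at had K20me3 levels of 276 and 114, a difference of -1.26, while its other probe set had 95.1 and 150 (0.47). The pair also disagreed for K4me2, at 1.10 and -0.73. Such disagreement was common on the array: of the genes with at least 2 probe sets passing the level filter, 51.2% had the same sign for the K20me3 difference and 53.2% for K4me2, against 66.6% for mRNA. For K4me3 and K27me2 these shares were 52.5% and 53.1%.

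Counts past 2-fold were also taken for the remaining marks. H3ac had 1 higher and 1 lower of 14 (12.9% and 14.9% of all probe sets), H4ac 0 and 2 (8.61% and 12.1%), and K4me2 3 and 1 (14.6% and 12.5%). K9me2 had 1 and 3 (16.9% and 18.4%), K9me3 4 and 2 (13% and 16.2%), and K20me3 5 and 2 (13.8% and 14.2%). Some counted differences rest on a ChIP or pre-IP level within the background in at least 1 heart. These were 3 of 4 for K9me2 (Tnni3, Tpm1 1371241_x_at and 1370287_a_at), 4 of 7 for K20me3 (both Tnnt2 probe sets, Tpm1 1395794_at and 1370287_a_at) and 2 of 6 for K4me3 (Tpm1 1371240_at and 1370287_a_at). For H3ac, H4ac, K4me2 and K27me2 it was 1 each (Tpm1 1370287_a_at), and for K9me3 0. Tpm1 1370287_a_at gave differences from -2.62 to -2.03 for 7 of 8 marks, and its pre-IP level in the normal heart was within the background.

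**Figure D5:**
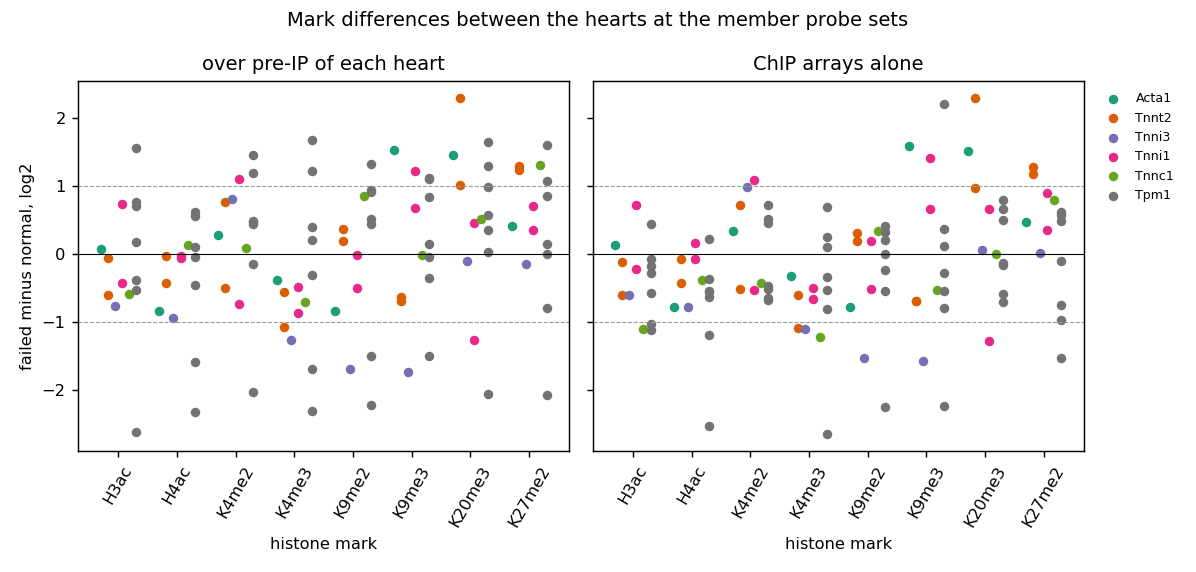
Difference of each mark between the hearts (log2 failed minus log2 normal) at the member probe sets, over pre-IP of each heart (left) and from the ChIP arrays alone (right), with dashed lines at 2-fold; each point rests on 4 arrays at the left and 2 at the right. The coloured K4me3 points, from -1.26 to -0.38 at the left, lie below 0 in both panels, and the coloured K27me2 points lie above 0 at the right.

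Across the 16 enrichments of a gene (8 marks, 2 hearts), taken at its probe set with the highest mRNA level, Tnnt2 and Tnnc1 had the most similar profile among members, with Pearson's r of 0.88, followed by Tnni3 and Tnnc1 at 0.81 and Tnnt2 and Tnni3 at 0.77. Tnni1 was unlike them, at 0.03 with Tnnc1, 0.02 with Tnnt2 and -0.16 with Tnni3. Acta1 was between, at 0.49 with Tnnc1, and Tpm1 had -0.47 with Tnni1. These are descriptions over 16 values that share 2 pre-IP arrays. Among 13468 other genes, the closest profile was that of Socs2 to Tnnc1 (0.96), Surf1 to Tnni3 (0.95), Mfap1a to Tpm1 (0.93), Card10 to Tnnt2 (0.92), Cd6 to Tnni1 (0.91) and M6pr to Acta1 (0.76). Each member was closer to that gene than to any other member. That gene was the best of 13468 while the members are few, so this cannot tell whether a similar profile is particular to the members. The median r of a member with those genes ran from -0.02 (Tnni1) to 0.03 (Tnni3).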

How the data were processed

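Each of the 20 arrays has a deposited intensity, on a linear scale, for every one of 31099 probe sets. Per the labels, RNA was turned into labelled cDNA, and DNA was fragmented, amplified by T7 transcription and labelled. The summarising and scaling tool was not given in the sources used here. Every array was scaled to a median of 100, floored at 10 and taken to log2. Gene names came from the platform annotation (57 control probe sets, 436 with several genes and 9780 not listed were left out), with all 6 measured member genes matched to RefSeq identifiers. Differences were counted at 1 on the log2 scale. Arrays give no counts, and with 1 array per group their number limits the precision: no test was possible.

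Members, lists and settings were chosen with earlier results of these data known. Named were all members, 2 genes each way per muscle list with the largest mRNA difference, some preset isoforms, and the closest enrichment profile; other genes are named for their position or as background. Unmatched list names (Actb among them) have no value here. Counting was tested on simulated data. Alternatives were values as deposited, quantile normalization, floors of 50 and 1, no pre-IP, gene means, no level filter and, after seeing the data, hybridisation controls and the mean pre-IP of both hearts. Python 3.11.15, numpy 2.4.6, pandas 2.3.3 and matplotlib 3.10.9 were used.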

Additional observations from a re-analysis of the deposited data

How the results depend on the processing

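With 1 array per heart and assay nothing separates a difference between the hearts from one between arrays, and dim ChIP levels reach the bacterial controls. No paired analysis was possible because each group has 1 sample. Of 1812 single values under an alternative, 1661 stayed within 0.56 (the SD of the pre-IP difference, used as tolerance), 143 moved further and 8 reversed. The 8 were past 2-fold before they changed sign, and sign changes of smaller differences, as for Tnni3 mRNA, are not among them. Without pre-IP such changes occurred at other Tpm1 probe sets, for example 1368724_a_at for H4ac (0.57 to -0.55) and K4me2 (0.45 to -0.67). The median K4me2 difference over Tpm1 went from 0.48 to -0.46. Reversed without pre-IP were 6 Tpm1 1370287_a_at differences: H4ac 0.23, K4me2 0.53, K4me3 0.25, K9me2 0.33, K20me3 0.50 and K27me2 0.49. With a floor of 50 its K27me2 became 0.012 and K4me3 at Tpm1 1371240_at 0.63. The cause was not tested.

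Member counts past 2-fold moved by over 1.5 times as follows. For mRNA, 8 were higher on the hybridisation controls (4 otherwise), and 2 were lower with quantile normalization and 0 with a floor of 50 (1 otherwise). For pre-IP a floor of 50 gave 1 (2 otherwise). Below pre-IP in both hearts were 2 for H3ac as deposited and 2 with quantile normalization (1 otherwise), 5 for K4me2 as deposited, 2 with quantile normalization and 2 with the mean pre-IP (1 otherwise), and 0 for K9me3 as deposited and 2 with the mean pre-IP (1 otherwise). For differences a floor of 50 gave 1 for H3ac and 1 for H4ac (2 otherwise) and 1 for K9me2 (4 otherwise). Without pre-IP the counts were 1 for K4me2 (4 otherwise), 2 for K9me2, 3 for K20me3 (7 otherwise) and 3 for K27me2 (6 otherwise), and K4me2 had 2 as deposited and 2 with quantile normalization. In the thin filament list 10 were higher on the hybridisation controls (6 otherwise), and 5 were lower as deposited, 5 with quantile normalization and 0 on the hybridisation controls (3 otherwise).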
